A study of Nicotiana benthamiana with 12 samples.

Results

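Catalases are haem enzymes of the peroxisome that split hydrogen peroxide into water and oxygen. The genes described here are all those whose annotation text in the deposited table starts with "Catalase", 11 of 40763 genes. That rule reads the text and no measured value. They were followed in leaf RNA of Nicotiana benthamiana, a wild tobacco that serves as a model plant. The plants were 5 weeks old, from soil under long days, and stayed at 23 °C (mock) or spent 1 h at 37 °C (heat). From both treatments the total RNA and the part of it on polysomes, chains of ribosomes on 1 transcript, were sequenced. This gave 12 libraries in 4 groups of 3, described as biological replicates. The numbers in the titles are 5 to 7 for mock total and heat polysome libraries, and 2 to 4 for heat total and mock polysome libraries. If a number marks a shared preparation, which the labels do not say, heat and that preparation cannot be told apart within a fraction. The same then holds for fraction and preparation within a treatment.

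In leaves of plants such as tobacco, much of the hydrogen peroxide in peroxisomes comes from glycolate oxidase in photorespiration, the pathway that recycles the product Rubisco makes with oxygen instead of carbon dioxide. Catalase removes it there. The protein is damaged by light and has to be made again through the day, so both its transcript level and its translation matter for the leaf. Plants hold several catalase genes that differ in tissue and timing, and N. benthamiana, an allotetraploid, often carries them as pairs of similar copies.

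The text and the domains of the 11 genes split them. In 8, the annotation gives the catalase core domain and the term catalase activity, with best hits to plant catalases. These are sunflower CATA_HELAN for 3 genes, CATA_SOLAP of the alpine snowbell Soldanella alpina for 4 and pepper CATA_CAPAN for 1. Of these 8, 7 list all 6 catalase domain entries. Niben101Ctg10591g00003.1 lists 3, without the haem-binding site, the active site and the catalase immune-responsive domain. The other 3 are called catalase-peroxidase after bacterial KatG proteins. Their only domain entry is haem peroxidase, a superfamily that in plants includes ascorbate peroxidases, and no catalase activity is listed, so they are given apart. One gene outside the rule, annotated as aspartate aminotransferase 1 (Niben101Scf09832g00002.1), carries a catalase domain entry and is not counted here. Where copies are nearly identical, their reads may be divided between the genes by the authors' counting, and values of single copies are uncertain. A level here is a CPM value, scaled for the size of the library multiplied by its TMM factor, and so not a plain share of its counts. In mock total library 5, 663 of 11262579 counts on Niben101Ctg10591g00003.1 stand as 42.1 CPM. In heat polysome library 5, 678 of 14485118 counts on that gene stand as 83.4 CPM. Levels are not scaled for gene length, so they are compared for a gene across libraries and not between genes.

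Libraries held 10724854 to 14485118 counts. Markers of leaf mesophyll (Rubisco small chain, Rubisco activase and chlorophyll a-b binding proteins, 92 tested genes) summed to 141000 to 151000 CPM in mock and 119000 to 127000 CPM in heat total RNA, and to 210000 to 292000 CPM in mock and 303000 to 422000 CPM in heat polysome RNA. Of these, 9 rose and 23 fell with heat in total RNA, and 49 rose and 5 fell in polysome RNA. Over all genes tested, 54.1% passed in total RNA and 56.0% in polysome RNA, and the other marker counts stand beside the same shares. Mock total libraries 6 and 7 stood apart in chloroplast transcripts. The 13 tested genes annotated as Rubisco large chain summed to 3215 and 4312 CPM there, to 168.2 CPM in mock total library 5 and to 41.83 to 773.4 CPM in the other groups. Of other cell types, 3 phloem protein 2-like genes summed to 20.2 to 24.2 CPM in mock and 57.3 to 60.8 CPM in heat total RNA, and to 55.4 to 64.1 CPM in mock and 106 to 166 CPM in heat polysome RNA. All 3 rose in both fractions, and none had a group mean under 1 CPM. Seed and root markers, 13 tested of 27, had 4 rises and 6 falls in total RNA and summed to 81.6 to 94.7 CPM in mock and 150 to 152 CPM in heat, with 4 of the 13 under 1 CPM. In polysome RNA they had 5 rises and 4 falls and summed to 182 to 281 CPM in mock and 373 to 491 CPM in heat. In both fractions a single gene, Casparian strip membrane protein 1 (Niben101Scf02752g11002.1), gained more than the mean sum did. It went from 21.3 ± 1.08 to 103 ± 3.27 CPM in total RNA and from 48.1 ± 12.8 to 257 ± 39.7 CPM in polysome RNA. In bulk tissue, more cells of a type and more RNA per cell cannot be told apart, and the part of these cell types in the catalase values was not tested.

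Heat did not move the catalases as a block. In total RNA, 4 of the 11 genes rose and 2 fell at an adjusted p threshold of 0.05. Of the 34325 genes tested, 54.1% passed, 8832 upward and 9728 downward, so the share of catalases that passed was close to the background. With RLE size factors in place of TMM, 5 catalase genes rose and 1 fell, and the balance over all genes turned to 9551 upward and 8846 downward (10109 and 8006 with DESeq2). In polysome RNA 5 rose and 1 fell, beside 56.0% of genes tested, 9632 upward and 9605 downward. For the mean of both fractions 5 rose and 2 fell, beside 65.7%. The libraries of both treatments did not overlap for 8 of the 11 genes in total RNA and for 6 in polysome RNA, beside 66.5% and 57.8% of all genes tested. The median log2 change of the 11 was 0.31 in total RNA and 0.36 in polysome RNA, against -0.08 and -0.06 over all genes tested. The changes ran from -0.84 to 3.89 in total RNA and from -1.12 to 3.85 in polysome RNA, and the highest value belonged to a different gene in each fraction. Tests are edgeR's quasi-likelihood test over all 12 libraries with Benjamini-Hochberg adjustment, and changes are given ± SE.

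**Figure D1:**
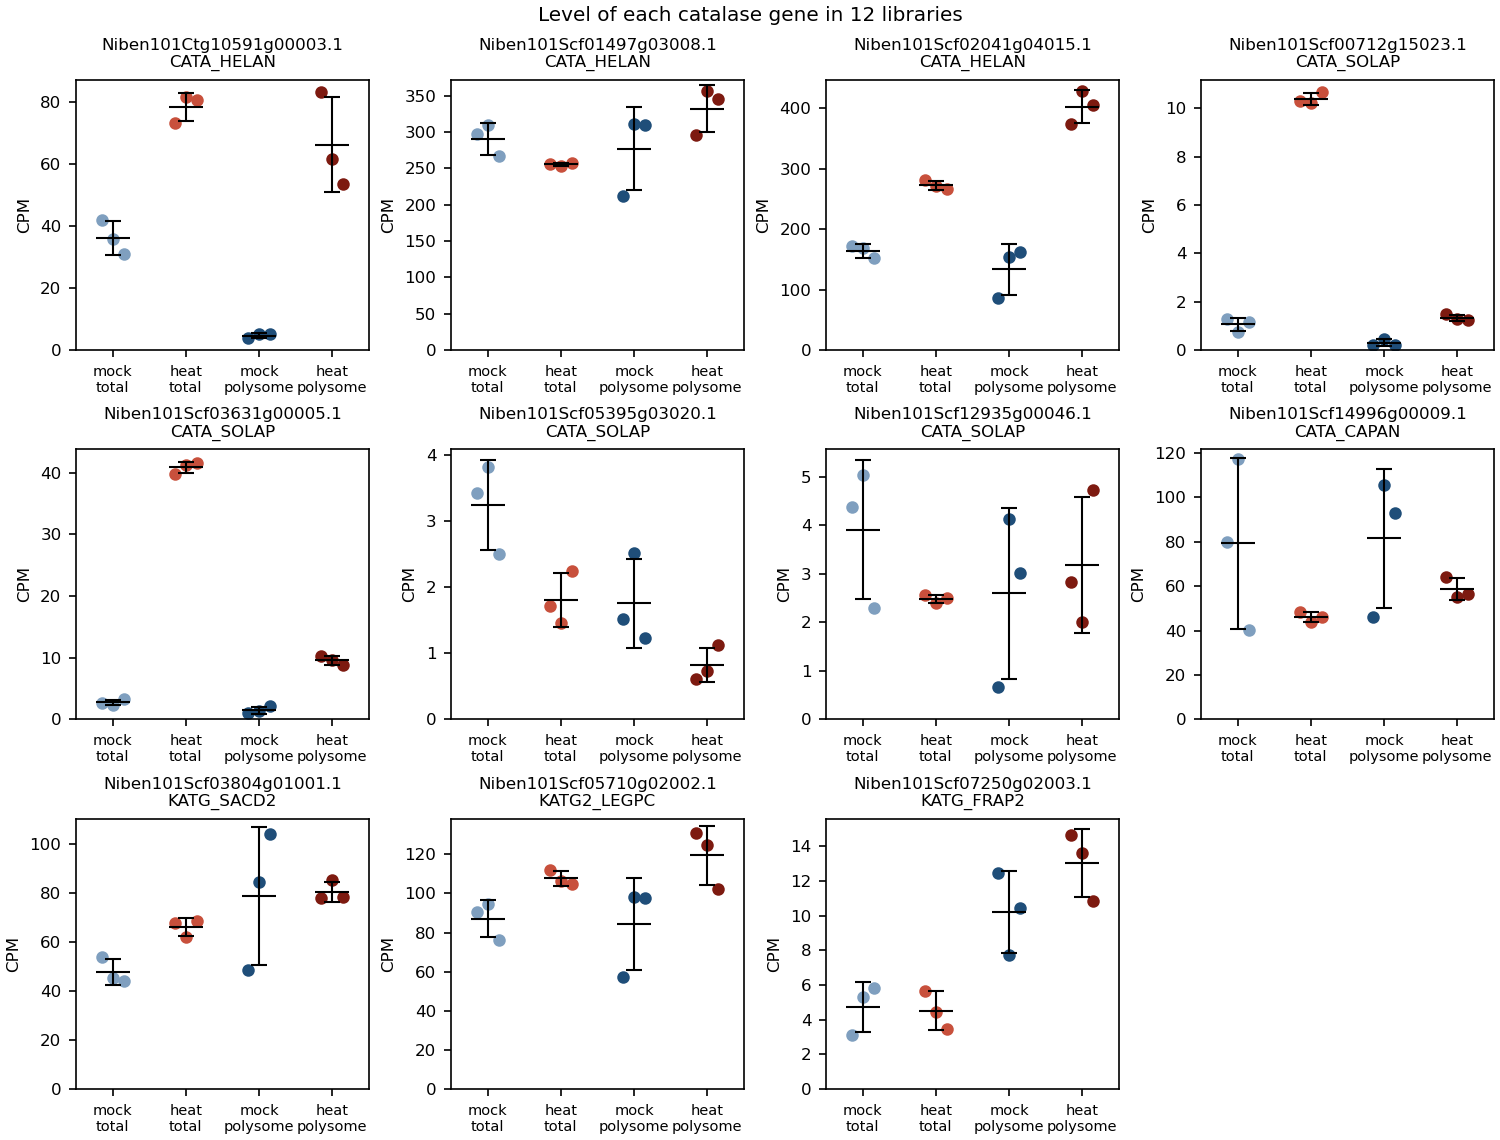
Level of each of the 11 genes (CPM, linear axis from 0, a separate scale for each panel) in the 4 groups. Points are single libraries, and bars are the mean ± SD of 3. The lowest heat value lies above the highest mock value in both fractions for Niben101Ctg10591g00003.1, Niben101Scf02041g04015.1, Niben101Scf00712g15023.1, Niben101Scf03631g00005.1 and, by a small margin, Niben101Scf05710g02002.1. For the last gene this holds after TMM scaling and not for plain shares of library counts.

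The 8 genes with catalase domains summed to 582 ± 74.7 CPM in mock total RNA and 709 ± 4.15 CPM in heat total RNA (mean ± SD, n = 3). In polysome RNA they summed to 503 ± 132 CPM in mock and 875 ± 41.2 CPM in heat. After TMM scaling the ranges did not overlap, with 498 to 643 against 705 to 713 CPM in total RNA and 350 to 582 against 833 to 915 CPM in polysome RNA. As plain shares of library counts they overlapped in both fractions. Mock total library 6 had 10949 of 11984551 counts on the 8 genes, and heat total library 2 had 12468 of 14313000. Mock polysome library 3 had 7625 of 14474404, and heat polysome library 5 had 6773 of 14485118. The sum was not tested. The lowest sum, 350 CPM, belonged to mock polysome library 2. Within the sum the balance moved. Of the reads on the 8 genes, not adjusted for length, Niben101Scf01497g03008.1 took 50.3 ± 2.78% in mock and 36.1 ± 0.265% in heat total RNA. Niben101Scf02041g04015.1 took 28.4 ± 2.11% and 38.4 ± 0.85%. In polysome RNA the same genes went from 55.8 ± 3.96% to 37.9 ± 2.12% and from 26.2 ± 1.8% to 46.0 ± 0.971%. The 4 genes with CATA_SOLAP hits went from 1.88 ± 0.0416% to 7.84 ± 0.21% of catalase reads in total RNA, but only from 1.19 ± 0.233% to 1.71 ± 0.193% in polysome RNA.

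**Figure D2:**
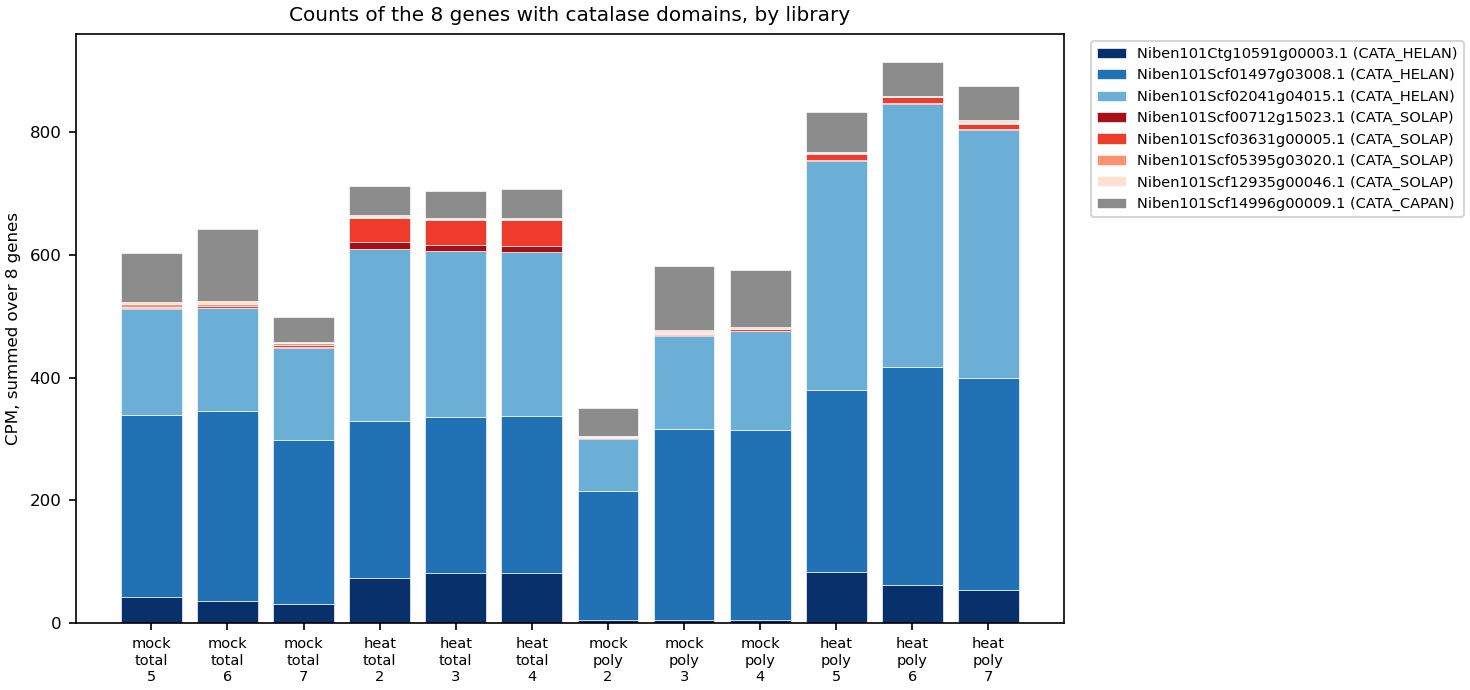
Levels of the 8 genes with catalase domains, stacked by gene (CPM after TMM scaling, linear axis from 0), in each of the 12 libraries. Heat total libraries reach 705 to 713 CPM and heat polysome libraries 833 to 915 CPM. The light blue stack (Niben101Scf02041g04015.1) is taller in all 6 heat libraries than in any mock library.

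The genes with sunflower-type hits hold most catalase reads, 79.9 to 92.5% in any library. Of these 3, Niben101Scf01497g03008.1 had the most reads in every mock library, was passed by Niben101Scf02041g04015.1 in every heat library, and showed no change that passed. Its mock total libraries held 297, 309 and 266 CPM and its heat total libraries 256, 254 and 257 CPM. The heat values lay just below the lowest mock value, and the change of -0.19 ± 0.16 did not pass (adjusted p = 0.34). The size of that gap depends on the TMM scaling. As plain shares of library counts the heat total libraries lay further below the mock ones. The nearest were mock total library 7, with 4157 of 10724854 counts on this gene, and heat total library 4, with 4224 of 13100977. The mock polysome libraries of this gene held 211, 311 and 310 CPM and its heat polysome libraries 296, 356 and 345 CPM. These ranges overlapped, with a change of 0.26 ± 0.16 (adjusted p = 0.18).

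Niben101Scf02041g04015.1, with the same best hit and domains, rose in both fractions. In total RNA it held 173, 168 and 151 CPM in mock and 281, 271 and 266 CPM in heat, groups well apart. In polysome RNA it held 85.3, 153 and 162 CPM in mock and 374, 429 and 405 CPM in heat. The increases were 0.73 ± 0.19 (adjusted p = 0.0043) and 1.59 ± 0.2 (adjusted p = 4.5e-06). Without mock total libraries 6 and 7, the value for total RNA was 0.69 ± 0.3 (adjusted p = 0.082). Its counts divided by those of Niben101Scf01497g03008.1 give a ratio that library size and scaling do not touch. That ratio was 0.545 to 0.581 in mock total and 1.04 to 1.1 in heat total RNA, and 0.404 to 0.521 in mock polysome and 1.17 to 1.26 in heat polysome RNA. The pair was set side by side after the values were seen, so this is a description, and in it every heat library lay above every mock library.

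Niben101Ctg10591g00003.1, the gene with the partial domain set, differed from both. In mock total RNA it held 42.1, 35.8 and 31.1 CPM and in heat total RNA 73.5, 81.6 and 80.6 CPM. In mock polysome RNA it held only 3.71, 5.04 and 5.04 CPM (39, 66 and 45 reads counted), and in heat polysome RNA 83.4, 61.7 and 53.8 CPM (678, 584 and 432 reads). Mock polysome libraries were thus the low ones, and the other 3 groups lay within 31.1 to 83.4 CPM. The gene rose by 1.11 ± 0.17 in total RNA (adjusted p = 5.8e-05) and by 3.85 ± 0.21 in polysome RNA (adjusted p = 3.2e-10), a 2.16-fold and a 14.4-fold increase. Both calls held in all 19 alternatives tried, with values of 0.93 to 1.26 and 3.66 to 3.99. Against Niben101Scf02041g04015.1 in the same library, its counts were 0.206 to 0.244 times as many in mock total and 0.262 to 0.303 in heat total RNA. In polysome RNA that ratio was 0.0312 to 0.0435 in mock and 0.133 to 0.223 in heat. This pair, too, was chosen with the values known, and its ratio is a description.

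The 4 genes with CATA_SOLAP hits list the same 6 domains and went in different directions. Niben101Scf03631g00005.1 rose most. It held 2.6, 2.41 and 3.27 CPM in mock total RNA and 39.8, 41.3 and 41.5 CPM in heat total RNA, a change of 3.89 ± 0.19 or 14.8-fold (adjusted p = 1.1e-10). In polysome RNA it held 1.05, 1.3 and 2.13 CPM in mock and 10.3, 9.61 and 8.84 CPM in heat, a change of 2.71 ± 0.23 or 6.54-fold (adjusted p = 5.7e-08). All heat libraries lay above all mock libraries, and heat total RNA was the high group. Ranked from the largest rise it was number 542 of 34325 genes in total RNA and number 1479 in polysome RNA.

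Niben101Scf00712g15023.1 had the same shape at fewer reads. Its counts were 20, 13 and 18 in mock total and 180, 161 and 175 in heat total RNA, and 2, 6 and 2 in mock polysome and 12, 12 and 10 in heat polysome RNA. Levels went from 1.06 ± 0.265 to 10.4 ± 0.24 CPM in total RNA and from 0.291 ± 0.146 to 1.33 ± 0.127 CPM in polysome RNA. It rose by 3.28 ± 0.25 (adjusted p = 2e-08) and 2.09 ± 0.4 (adjusted p = 0.00039). The lowest count in the files is 1 in every library, so part of the smallest counts may be an added 1. With 1 subtracted from every count the rise in polysome RNA was 2.46 ± 0.47 (adjusted p = 0.00037). Over the 12 libraries its log2 CPM followed that of Niben101Scf03631g00005.1 with a Pearson r of 0.95, the highest among the 11 genes, in libraries that share depth and scaling.

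The other members of this group were low and did not rise. Niben101Scf05395g03020.1 held 3.43, 3.82 and 2.5 CPM in mock and 1.72, 1.46 and 2.25 CPM in heat total RNA. In polysome RNA it held 1.52, 2.52 and 1.23 CPM in mock and 0.615, 0.739 and 1.12 CPM in heat. The groups did not overlap in either fraction, though by little. It fell by 0.84 ± 0.31 (adjusted p = 0.03) and 1.12 ± 0.4 (adjusted p = 0.026), calls that ended in 7 and 3 of 18 alternatives. In total RNA these include the fits without mock total library 5 or 6, heat total library 2 or 3, and mock total libraries 6 and 7 (adjusted p over the alternatives of 0.019 to 0.13). With mock total libraries 6 and 7 left out the value was as large, -0.88 ± 0.43 (adjusted p = 0.12). In polysome RNA they are the fits without mock polysome library 3 or heat polysome library 5 or 6 (adjusted p over the alternatives of 0.017 to 0.16). The value was -0.74 ± 0.43 when mock polysome library 3 was left out, and -0.94 ± 0.44 and -1.03 ± 0.47 when heat polysome library 5 or 6 was. Niben101Scf12935g00046.1 held 3.91 ± 1.43 and 2.49 ± 0.0832 CPM in mock and heat total RNA and 2.6 ± 1.77 and 3.19 ± 1.4 CPM in polysome RNA. Its groups overlapped, and neither change passed (-0.65 ± 0.43 and 0.26 ± 0.48, adjusted p = 0.22 and 0.66).

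The pepper-type gene, Niben101Scf14996g00009.1, varied widely between mock total libraries. It held 80, 117 and 40.4 CPM in mock total RNA and 48.5, 44 and 46.3 CPM in heat total RNA. Mock library 7 lay below all heat libraries, and the other mock libraries lay above them. It fell by 0.78 ± 0.31 (adjusted p = 0.043), a call lost in 13 of 19 alternatives. They include RLE factors, DESeq2, no filter, and the fits without any 1 heat total or heat polysome library, mock polysome library 4, mock total library 5, or mock total libraries 6 and 7, all with values of -0.78 to -0.64. Without mock total library 6 the value was -0.36 ± 0.3 (adjusted p = 0.33; over all alternatives 0.0024 to 0.33). In polysome RNA it held 46.1, 105 and 93.1 CPM in mock and 64.2, 55.3 and 56.5 CPM in heat. That change of -0.48 ± 0.31 did not pass (adjusted p = 0.2), but did without mock polysome library 2 (-0.75 ± 0.28, adjusted p = 0.033). Among the 8 genes with catalase domains it went from 13.2 ± 5.1% to 6.52 ± 0.275% of reads in total RNA and from 15.8 ± 2.47% to 6.73 ± 0.87% in polysome RNA.

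**Figure D3:**
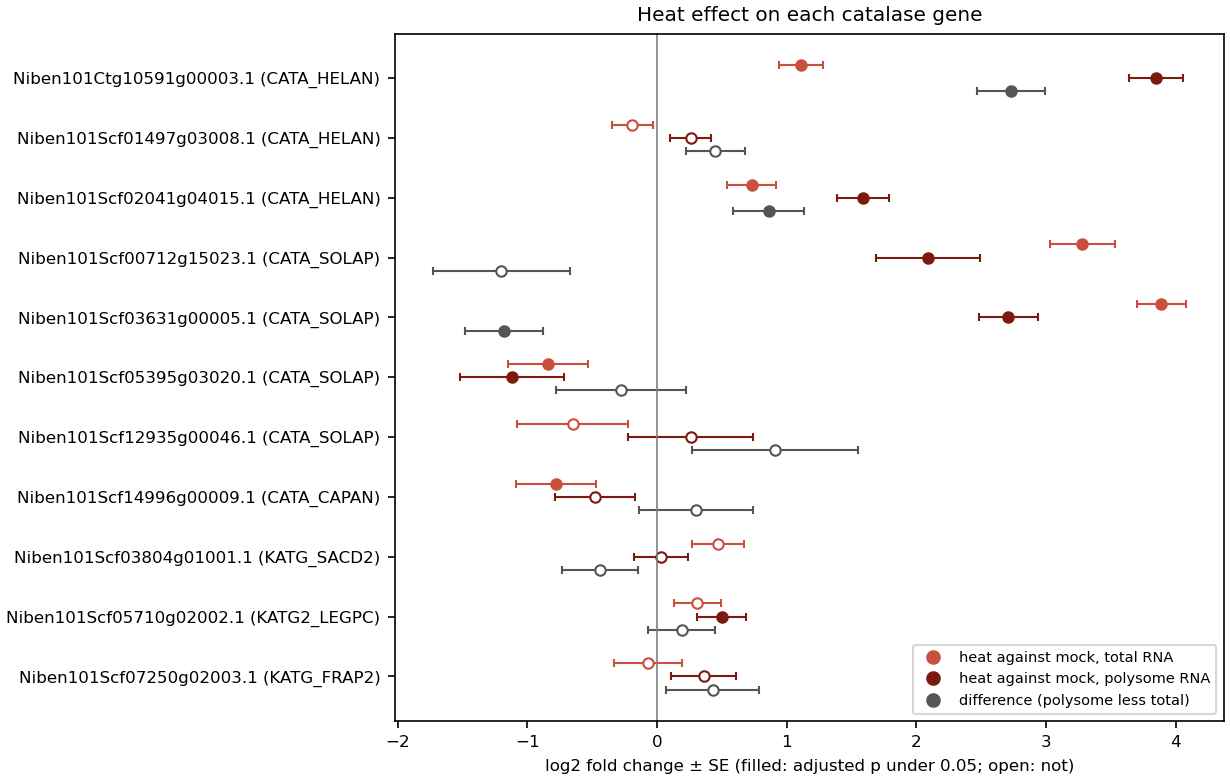
Heat effect on each of the 11 genes, as log2 fold change ± SE from edgeR, in total RNA, in polysome RNA and as the difference of these effects. Filled points passed an adjusted p of 0.05 and open points did not. Niben101Ctg10591g00003.1 has its larger change in polysome RNA (3.85 against 1.11), and Niben101Scf03631g00005.1 in total RNA (3.89 against 2.71).

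The 3 genes called catalase-peroxidase changed little. Niben101Scf05710g02002.1 held 90.7, 94.3 and 76.4 CPM in mock and 112, 106 and 105 CPM in heat total RNA (0.31 ± 0.18, adjusted p = 0.17). In polysome RNA it rose by 0.5 ± 0.19 (adjusted p = 0.031), from 84.4 ± 23.4 to 119 ± 15 CPM, a call lost in 5 of 19 alternatives. As plain shares of library counts its mock and heat libraries overlapped in both fractions. Mock polysome library 3 had 1287 of 14474404 counts, and heat polysome library 5 had 1066 of 14485118. Mock total library 6 had 1607 of 11984551, and heat total library 4 had 1722 of 13100977. Without mock polysome library 2, which held 57.4 CPM, the value was 0.29 ± 0.15 (adjusted p = 0.11), and without heat polysome library 5 or 6 it was 0.44 ± 0.21 and 0.48 ± 0.22 (adjusted p = 0.094 and 0.083). Niben101Scf03804g01001.1 held 47.7 ± 5.31 and 66 ± 3.59 CPM in mock and heat total RNA. Its change of 0.47 ± 0.2 did not pass (adjusted p = 0.064) but passed in 7 of 19 alternatives, with adjusted p of 0.003 to 0.43 over all of them. In polysome RNA it held 78.9 ± 28.2 and 80.6 ± 4.11 CPM (0.03 ± 0.21, adjusted p = 0.91). Niben101Scf07250g02003.1 held 4.74 ± 1.44 and 4.52 ± 1.1 CPM in total RNA and 10.2 ± 2.38 and 13 ± 1.97 CPM in polysome RNA, with overlapping groups (adjusted p = 0.85 and 0.23).

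Whether heat moved a transcript differently among ribosome-bound RNA than in the total pool was asked with the difference of the heat effects, an interaction term. Of the 11 genes, 2 had the higher effect in polysome RNA and 1 in total RNA, where 18.6% of all genes tested passed, 3502 with the higher effect in polysome RNA and 2891 in total RNA. That balance turned to 3085 and 3246 with RLE factors and to 3056 and 3655 with DESeq2. Niben101Ctg10591g00003.1 had a difference of 2.73 ± 0.26 (adjusted p = 5.7e-05), number 291 from the top of 34325, and passed in all 18 alternatives (2.52 to 2.93). Niben101Scf02041g04015.1 had 0.86 ± 0.27 (adjusted p = 0.036). That call ended in 10 of 18 alternatives, with adjusted p of 0.024 to 0.12 over all 18. They are the fits with no filter, without any 1 of the heat total or heat polysome libraries, without mock total library 5 or 6 and without mock total libraries 6 and 7 (0.93 ± 0.34, adjusted p = 0.12). Niben101Scf03631g00005.1 had -1.18 ± 0.3 (adjusted p = 0.015), so its rise was smaller in polysome RNA. The value was -1.27 ± 0.38 with mock total libraries 6 and 7 left out (adjusted p = 0.057) and -0.89 ± 0.3 with mock polysome library 4 left out (adjusted p = 0.058). Niben101Scf00712g15023.1 had a value of similar size, -1.2 ± 0.53, that did not pass (adjusted p = 0.15). For Niben101Scf01497g03008.1, the difference was 0.45 ± 0.23 (adjusted p = 0.19).

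The polysome to total comparison within a treatment splits these differences by treatment. Its groups differ in title numbers too, so fraction and that numbering cannot be told apart. Higher or lower on polysomes is meant after TMM scaling, relative to the other genes of each fraction. In mock leaves 2 of the 11 genes were higher and 4 lower in polysome than in total RNA, beside 54.2% of genes tested, 9275 higher and 9327 lower (10012 and 8682 with RLE factors, 9800 and 8259 with DESeq2). The libraries of both fractions did not overlap for 4 of the 11, beside 55.8% of all genes. Niben101Ctg10591g00003.1 was 7.89-fold lower on polysomes (-2.98 ± 0.2, adjusted p = 3.7e-08), number 552 from the lowest of 34325. In heat it was at -0.25 ± 0.17 (adjusted p = 0.23), and its libraries of both fractions overlapped after TMM scaling. As a plain share of library counts, the gene was lower in every heat polysome library than in any heat total library. The nearest were heat polysome library 5, with 678 of 14485118 counts, and heat total library 2, with 1285 of 14313000. Without heat polysome library 5, the highest of its group, the value in heat was -0.45 ± 0.17 (adjusted p = 0.034). In a fit of the compared groups alone it passed too (-0.32 ± 0.13, adjusted p = 0.039). Niben101Scf00712g15023.1 was lower on polysomes in mock (-1.76 ± 0.39, adjusted p = 0.0012) and in heat (-2.96 ± 0.26, adjusted p = 1.7e-07). Niben101Scf03631g00005.1 was also lower in both, by -0.91 ± 0.24 in mock (adjusted p = 0.0046) and -2.09 ± 0.17 in heat (adjusted p = 1.1e-07). The mock call had an adjusted p of 0.053 in a fit of those groups alone and of 0.058 with mock total libraries 6 and 7 left out, at values of -0.91 ± 0.34 and -0.84 ± 0.33.

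At 37 °C 2 genes were higher and 3 lower on polysomes, beside 59.1% of genes tested, 10560 higher and 9743 lower. The fractions did not overlap for 8 of the 11, beside 69.0% of all genes. The lower ones were Niben101Scf00712g15023.1, Niben101Scf03631g00005.1 and Niben101Scf05395g03020.1 (-1.13 ± 0.39, adjusted p = 0.02), all with CATA_SOLAP hits. The last was also lower in mock (-0.85 ± 0.32, adjusted p = 0.034), a call that ended in 7 of 18 alternatives. They are DESeq2, the fit of those groups alone, and the fits that leave out mock polysome library 2 or 4, mock total library 5 or 6, or mock total libraries 6 and 7 (adjusted p over the alternatives of 0.0096 to 0.12). Leaving out mock total libraries 6 and 7 gave a value as large, -0.93 ± 0.44 (adjusted p = 0.11). In heat its call ended without heat total library 4 or heat polysome library 5 or 6 (adjusted p = 0.064 to 0.074). The higher ones were Niben101Scf02041g04015.1 (0.56 ± 0.19, adjusted p = 0.018) and Niben101Scf07250g02003.1 (1.52 ± 0.26, adjusted p = 9.7e-05). The first call ended without any 1 of the heat total libraries or heat polysome library 6 or 7 (adjusted p of 0.05 to 0.071). Its direction also depends on the TMM scaling. As a plain share of library counts, Niben101Scf02041g04015.1 was lower in every heat polysome library than in any heat total library. The nearest were heat polysome library 6, with 4060 of 14147762 counts, and heat total library 4, with 4373 of 13100977. Niben101Scf07250g02003.1 was higher in mock too (1.1 ± 0.25, adjusted p = 0.0019), as was Niben101Scf03804g01001.1 (0.72 ± 0.21, adjusted p = 0.0075). The latter call ended with mock polysome library 4 left out (0.48 ± 0.2, adjusted p = 0.06) and with mock total libraries 6 and 7 left out (0.55 ± 0.31, adjusted p = 0.18). The comparisons share the total RNA or the polysome libraries with the heat comparisons and are not independent of them.

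**Figure D4:**
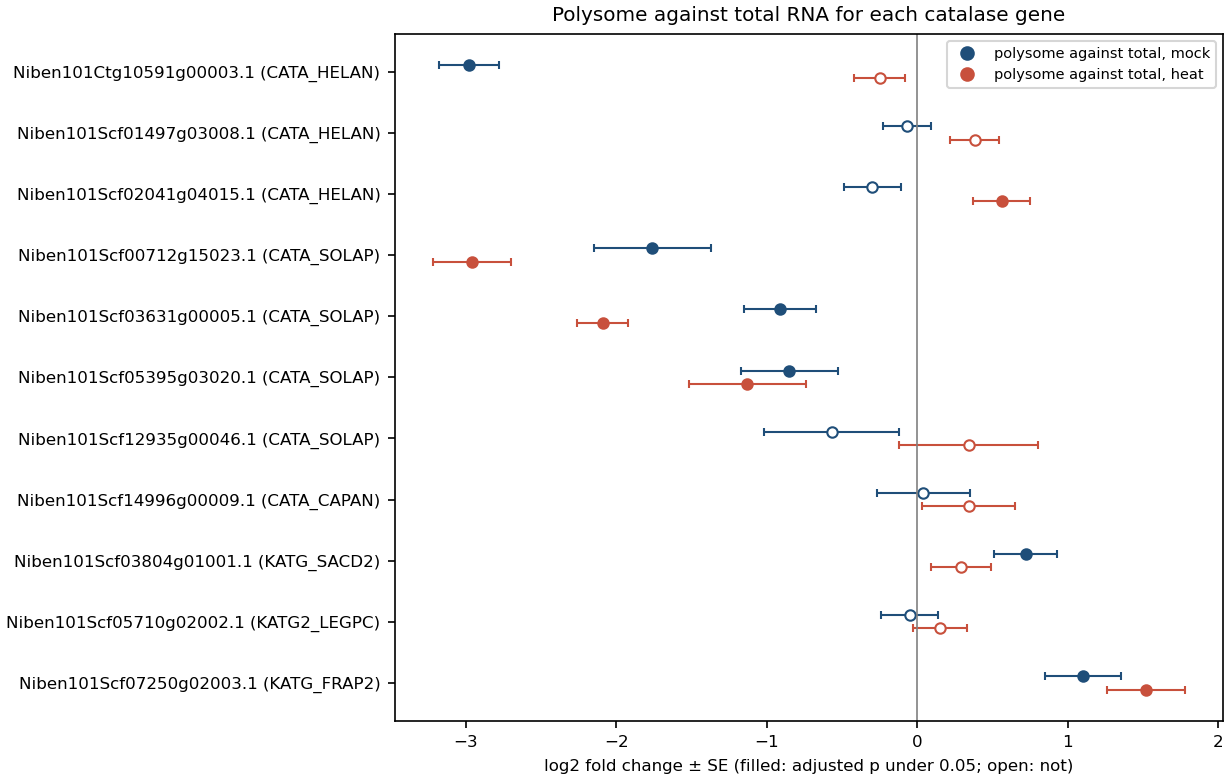
Polysome against total RNA for each of the 11 genes, as log2 fold change ± SE from edgeR, in mock and in heat. Filled points passed an adjusted p of 0.05 and open points did not. Niben101Ctg10591g00003.1 stands at -2.98 in mock and -0.25 in heat, while Niben101Scf00712g15023.1 and Niben101Scf03631g00005.1 stand lower in heat than in mock.

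Genes with the most similar pattern over the 12 libraries were taken as the 3 highest Pearson r of log2 CPM among 16155 genes with an informative annotation and a level above the median. For Niben101Ctg10591g00003.1 they were phosphoglucomutase-1 (Niben101Scf05822g06017.1, r = 0.99), a dehydrogenase/reductase SDR family member 4 (Niben101Scf03546g01023.1, r = 0.988) and a poly(U)-specific endoribonuclease-B (Niben101Scf01485g00002.1, r = 0.988). Their log2 changes were 0.42 to 0.82 in total RNA and 2.21 to 2.4 in polysome RNA. For Niben101Scf03631g00005.1 they were a glucose transporter (Niben101Scf01147g04014.1, r = 0.993), an ankyrin repeat and zinc finger protein (Niben101Scf04813g00007.1, r = 0.992) and an LMBR1-like membrane protein (Niben101Scf08871g00007.1, r = 0.988). For Niben101Scf02041g04015.1 they were a DnaJ chaperone (Niben101Scf30670g00007.1, r = 0.991), an AAED1 thioredoxin-like protein (Niben101Scf00496g00001.1, r = 0.985) and hemoglobin-1 (Niben101Scf09556g02013.1, r = 0.977). For Niben101Scf01497g03008.1 there was no gene above r = 0.912. All these libraries share the split into heat and mock, so such r values are high for many genes and serve as a description only.

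The genes around catalase were counted from lists matched on annotation text. Enzymes of photorespiration, the pathway whose glycolate oxidase makes the peroxide, had 8 of 59 tested genes rise and 20 fall in total RNA, with a median of -0.24. In polysome RNA 18 rose and 12 fell, with a median of 0.16. The list summed to 5970 ± 117 CPM in mock and 6900 ± 106 CPM in heat total RNA. In polysome RNA it summed to 8880 ± 1400 and 10200 ± 1220 CPM. The gene of this list with the most reads, a serine hydroxymethyltransferase (Niben101Scf01048g00005.1), rose by 0.82 ± 0.22 in total RNA (adjusted p = 0.0056). Its change of 0.48 ± 0.22 in polysome RNA did not pass (adjusted p = 0.077). A hydroxypyruvate reductase (Niben101Scf03287g00021.1), an enzyme late in the pathway, fell by 1.75 ± 0.15 in total RNA (adjusted p = 9e-08). A glycine cleavage H protein (Niben101Scf00526g00002.1) fell by 1.5 ± 0.15 in polysome RNA (adjusted p = 4.7e-07), and an aminomethyltransferase (Niben101Scf02145g10005.1), of the same glycine cleavage system, rose by 1.77 ± 0.19 (adjusted p = 1.4e-06). Peroxisome biogenesis genes had 5 rises and 10 falls among 34 in total RNA and 6 and 6 in polysome RNA. A receptor for the peroxisomal targeting signal 1 (Niben101Scf03733g00011.1), which imports most peroxisomal enzymes, rose by 0.96 ± 0.17 in total RNA (adjusted p = 0.00016). Genes of the PEX11 type, a family that helps peroxisomes divide, went both ways. A low one (peroxisomal membrane protein 11-4, Niben101Scf34874g00008.1) fell by 2.57 ± 0.25 in total RNA (adjusted p = 3.1e-07), from 7.42 ± 1.35 to 1.24 ± 0.313 CPM. The one with the most reads (11-5, Niben101Scf03945g00015.1) did not pass in total RNA (-0.3 ± 0.15, adjusted p = 0.11). It rose by 0.73 ± 0.15 in polysome RNA (adjusted p = 0.00083). There, another 11-4 gene (Niben101Scf05645g06005.1) fell by 1.55 ± 0.17 (adjusted p = 1.7e-06).

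Peroxisomal fatty acid oxidation, whose acyl-CoA oxidases also release hydrogen peroxide, had 10 rises and 5 falls among 27 genes in total RNA and 15 and 2 in polysome RNA, with medians of 0.38 and 0.8. An acyl-CoA oxidase 2 (Niben101Scf03510g03001.1) went from 3.51 ± 0.694 to 46.9 ± 1.64 CPM in total RNA and from 1.9 ± 0.851 to 33.3 ± 4.89 CPM in polysome RNA. It rose by 3.74 ± 0.22 and 4.09 ± 0.25 (adjusted p = 1.3e-09 and 1.4e-09). The gene with the most reads in that list, a 3-ketoacyl-CoA thiolase (Niben101Scf10189g02009.1), rose by 1.5 ± 0.2 and 1.64 ± 0.2 (adjusted p = 9e-06 and 4.1e-06).

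Enzymes other than catalase that reduce peroxides had 13 rises and 8 falls among 33 in total RNA and 19 and 5 in polysome RNA, with medians of 0 and 0.6. A gene annotated as ascorbate peroxidase 2 (Niben101Scf07050g00006.1), which reduces hydrogen peroxide with ascorbate, went from 20.5 ± 3.28 to 345 ± 11 CPM in total RNA and from 31.9 ± 8.44 to 618 ± 139 CPM in polysome RNA. Its increases were 4.07 ± 0.23 and 4.28 ± 0.23 (adjusted p = 5.6e-10 and 3.3e-10). Ascorbate peroxidase 1 (Niben101Scf06590g00003.1), with the most reads of the list, went from 109 ± 8.4 to 827 ± 21.6 CPM in total RNA (2.92 ± 0.17, adjusted p = 1.3e-09). Peroxiredoxin-2B (Niben101Scf03991g00007.1), a thiol peroxidase, fell by 1.74 ± 0.16 in total RNA (adjusted p = 2e-07). The list summed to 1600 ± 117 CPM in mock and 3960 ± 117 CPM in heat total RNA. Enzymes that form peroxide or superoxide had 16 rises and 14 falls among 37 in total RNA and 15 and 9 in polysome RNA. A polyamine oxidase 3 (Niben101Scf02428g01020.1), which releases hydrogen peroxide as it breaks down polyamines, showed increases of 2.28 ± 0.13 and 2.34 ± 0.14 (adjusted p = 1.1e-09 and 1.2e-09). An iron superoxide dismutase (Niben101Scf04926g04007.1), which turns superoxide into hydrogen peroxide, fell by 2.46 ± 0.31 in total RNA (adjusted p = 6.8e-06). All these counts stand beside 54.1% of genes tested that passed in total RNA and 56.0% in polysome RNA, and the medians over all genes were -0.08 in total and -0.06 in polysome RNA.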

How the data were processed

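One deposited table with 12 RNA sequencing libraries was used. According to the submitters' processing notes, cutadapt, HISAT2, HTSeq 0.11.0 and DESeq took part, with no role stated, and the genome build was not given in those notes. Whole-number counts per gene are as the authors deposited them, per the file headers, and the lowest count is 1 in every library. The authors also deposited a normalized signal per library, which equals the counts over 1 size factor per library (within a relative 0.00018 of median-of-ratios factors), and log2 ratios of the group means of that signal, per the file headers. Signal and log2 columns were checked and give no result here. The table has 40763 genes. Another 2 lines were empty and are not analysed here.

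The main test was edgeR's quasi-likelihood test (edgeR 4.0.16, R 4.3.3), which used TMM factors, filterByExpr at a count of 10 and 1 mean per group over all libraries. All 11 catalase genes passed that filter. Adjustment was by Benjamini-Hochberg over the 34325 genes tested, with a threshold of 0.05. The SE is the log2 fold change over the square root of F. Libraries of a group differed by more than sampling noise (chi-square per degree of freedom of at least 1.74). The labels do not say whether they come from separate plants, so p-values measure the spread between these libraries. Scripts were tested on simulated data. Members, lists and tests were chosen with earlier results of these data known. Named were all catalase genes and, from each list, genes with the most reads or the smallest adjusted p in a direction. Lists were cleaned by their text of phosphoglycerate enzymes and other partial matches. Alternatives were RLE factors, no filter, a CPM filter (mean of 5 or more), DESeq2 (version 1.42.0), the compared libraries by themselves, 1 subtracted from each count, every library left out in turn, mock total libraries 6 and 7 left out together, and a block by title number. No genome or sequence table was used, so no coordinates or sequences are given.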

Additional observations from a re-analysis of the deposited data

Results flagged for a closer look

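For 3 catalase genes the heat effect differed between polysome and total RNA by the interaction term of edgeR's quasi-likelihood test. The difference was 2.73 for Niben101Ctg10591g00003.1, 0.86 for Niben101Scf02041g04015.1 and -1.18 for Niben101Scf03631g00005.1, on the log2 scale (adjusted p = 5.7e-05, 0.036 and 0.015). The direction was the same in all 18 alternatives for each of them, with values of 2.52 to 2.93, 0.59 to 1.01 and -1.4 to -0.89. Only the call for Niben101Ctg10591g00003.1 held in all 18. It ended in 10 for Niben101Scf02041g04015.1 and in 2 for Niben101Scf03631g00005.1. The interaction sets groups with title numbers 5 to 7 against groups with 2 to 4, so it and that numbering cannot be told apart.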

How the results depend on the processing

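Depth limits the genes with few reads, above all Niben101Scf00712g15023.1 with 2 to 6 counts in mock polysome libraries. The counts of genes called stayed within 1.5 times except where named here. With a mean of at least 5 CPM, which tests fewer genes and leaves no value for Niben101Scf00712g15023.1, Niben101Scf05395g03020.1 and Niben101Scf12935g00046.1, the genes called were 11757 for heat in total RNA, 12246 for heat in polysome RNA, 12296 for polysome against total RNA in mock and 13528 for the mean heat effect. Catalase genes called were then 3 for heat in polysome RNA, 3 for polysome against total RNA in heat and 4 for the mean heat effect. Without mock total libraries 6 and 7 the difference of the heat effects was called for 2434 genes, and for 1 catalase gene, with 3 catalase genes called for heat in total RNA and 3 for polysome against total RNA in mock. In a fit of the compared libraries alone, 8 catalase genes were called for polysome against total RNA in heat.

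With each library left out in turn, 4150 to 7498 genes were called for the difference, the lowest counts (4234, 4150 and 4166) without heat total library 2, 3 or 4. Catalase genes called were 4 to 8 for heat in total RNA, 4 to 6 for heat in polysome RNA, 2 to 4 for the difference, 4 to 6 for polysome against total RNA in mock, 3 to 6 in heat and 6 to 7 for the mean. The 3 came without heat total library 4 or heat polysome library 6.

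Directions turned for changes that passed neither way. For heat in total RNA, Niben101Scf07250g02003.1 had 0.01 with RLE factors, 0.02 with no filter, 0.08 with DESeq2, 0.57 without mock total libraries 6 and 7 and -0.27 to 0.12 with a library left out. In polysome RNA, Niben101Scf03804g01001.1 had -0.14 with the CPM filter and -0.22 to 0.29 with a library left out, and Niben101Scf12935g00046.1 had -0.19 to 0.82. The difference for Niben101Scf07250g02003.1 was -0.19 without mock total libraries 6 and 7. With a library left out the difference was -0.56 to 0.08 for Niben101Scf05395g03020.1, -0.06 to 0.31 for Niben101Scf05710g02002.1 and -0.1 to 0.62 for Niben101Scf14996g00009.1. For polysome against total RNA in mock, Niben101Scf05710g02002.1 had 0.01 with RLE factors, 0.01 with DESeq2 and -0.16 to 0.17 with a library left out. Niben101Scf14996g00009.1 had -0.03 with the CPM filter and -0.28 to 0.44, and Niben101Scf01497g03008.1 had -0.15 to 0.09. In heat, Niben101Scf12935g00046.1 had -0.07 to 0.59. The cause was not tested.

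Same-numbered libraries did not deviate together from their group means (correlations of -0.078 to 0.048 over 17162 genes). Such deviations leave out any shift shared by a whole group, so they do not show whether the numbering marks a preparation. Groups compared within a fraction or a treatment share no title number, so the number was not used to pair them. With it as a replicate block the mean heat effect was called for 21829 genes, and for 7 catalase genes as without it. For the other comparisons the block could not be fitted.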
